A study of Drosophila melanogaster with 3 samples.

Results

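The promoter-near intronic peaks of CG31627 were 1932 of the 7717 peaks (25.0%) in the authors' IDR-thresholded list, which keeps the peaks that rank alike in replicate libraries. A peak was a member when its summit lay inside a gene body, in no annotated exon, and 501 to 5000 bp from the nearest transcription start site of any gene. The other summits lay within 500 bp of a start site (3223 promoter peaks, 41.8%), in introns more than 5000 bp from any start site (1084 deep intronic peaks, 14.0%), between genes (1301, 16.9%) or in exons away from start sites (177, 2.29%). The study was a transcription factor ChIP-seq experiment on whole Drosophila melanogaster white prepupae, with males and females pooled. The animals came from a transgenic line that stably expresses CG31627 with GFP at its C terminus, and chromatin was precipitated with an antibody against GFP, although 1 label gives CG31627 as the antibody's name. All samples formed 1 group of 3 biological replicates of this line, so no second genotype, stage or treatment was compared. Which promoter drives the fusion protein is stated nowhere in the labels, and control libraries were not analysed here.

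White prepupae are animals at the start of metamorphosis, when a pulse of the steroid hormone ecdysone starts the change of larval into adult tissues. In Drosophila, introns close to a start site, and first introns above all, often hold enhancers, which are stretches of DNA where transcription factors bind and raise transcription from a promoter nearby. A ChIP-seq peak there reports that the tagged protein was cross-linked to that DNA, directly or through other proteins, and does not name the gene that responds. Whole animals were used, so binding in a few cell types and weak binding in all of them cannot be told apart.

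The sequences from 50 bp before to 50 bp after the summit (dm6, plus strand) show what the strongest of these sites look like. The following 6 belong to the members with the highest signal value among those recovered in all 3 libraries on the arms 2L, 3L, 3R, 4 and X. Capitals mark unbroken runs of 6 or more A or T bases, since a high A or T content was the feature most widely shared at the summits.
ush, chr2L:481037-481137, rank 2: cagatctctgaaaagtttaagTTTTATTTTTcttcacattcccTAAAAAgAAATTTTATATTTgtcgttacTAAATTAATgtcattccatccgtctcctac
Lk6, chr3R:11760992-11761092, rank 7: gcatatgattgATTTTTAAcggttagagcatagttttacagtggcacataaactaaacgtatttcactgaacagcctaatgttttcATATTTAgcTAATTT
CG11050, chr2L:6612657-6612757, rank 14: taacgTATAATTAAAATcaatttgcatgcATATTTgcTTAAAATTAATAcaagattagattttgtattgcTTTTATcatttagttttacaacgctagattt
CG32772, chrX:4910314-4910414, rank 18: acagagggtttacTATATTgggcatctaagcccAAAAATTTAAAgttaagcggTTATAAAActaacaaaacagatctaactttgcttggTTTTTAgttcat
CG4496, chr2L:7188576-7188676, rank 36: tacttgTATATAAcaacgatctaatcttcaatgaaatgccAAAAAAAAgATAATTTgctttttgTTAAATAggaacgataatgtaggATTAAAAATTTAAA
LPCAT, chrX:9579247-9579347, rank 37: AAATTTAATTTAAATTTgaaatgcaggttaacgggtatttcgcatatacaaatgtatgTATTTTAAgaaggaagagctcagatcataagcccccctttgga
These windows were 67.3% (LPCAT) to 78.2% (CG11050) A or T. Of 20 motifs searched, CG11050 held a GATA site and a homeodomain site, CG4496 held a GATA site and the core of the BEAF-32 site, and the windows of ush, Lk6, CG32772 and LPCAT held none.

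The strongest member lay in a first intron of ush, which encodes U-shaped, a zinc finger partner of GATA factors, and it was also the second strongest peak of the whole list. It ranked 2 in replicate 1, 2 in replicate 2 and 2 in replicate 3. The nearest start site, 1399 bp from its summit, was that of the neighbouring gene cbt, which encodes the zinc finger protein Cabut, so the host gene and the nearest gene differ here. The next member lay in a first intron of Lk6, a protein kinase of the Mnk family that acts on the cap-binding protein eIF4E, 963 bp from an Lk6 start site. It ranked 5 in replicate 1, 8 in replicate 2 and 4 in replicate 3.

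The rest of the 20 strongest members that all 3 libraries recovered ranked 14 to 74 in the IDR-thresholded list. They lay in CG11050, in HmgD and HmgZ, which overlap and encode DNA-bending HMG-box proteins, and in CG32772, CG4496, LPCAT, a phospholipid acyltransferase gene, Adf1, a transcription factor gene, CG9663, norpA, which encodes the phospholipase C of phototransduction, Zw, which encodes glucose-6-phosphate dehydrogenase, CG3726, CG12769, Mhcl, a myosin heavy chain-like gene, Eip78C, Tlk, mub, wit, Trl and CG32264. Eip78C is an ecdysone-inducible nuclear receptor, Tlk the Tousled-like kinase, mub an RNA-binding protein, wit a type II BMP receptor and Trl the GAGA factor. Their order was close in the libraries: the Eip78C peak ranked 56 in replicate 1, 69 in replicate 2 and 62 in replicate 3, and the Trl peak 73, 81 and 58. The member in Mhcl was among the less even ones, at rank 47 in replicate 1, 53 in replicate 2 and 81 in replicate 3. Intervals of 4 of the 20 also covered exon bases, from 11 bp in Mhcl to 324 bp in CG11050.

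**Figure D1:**
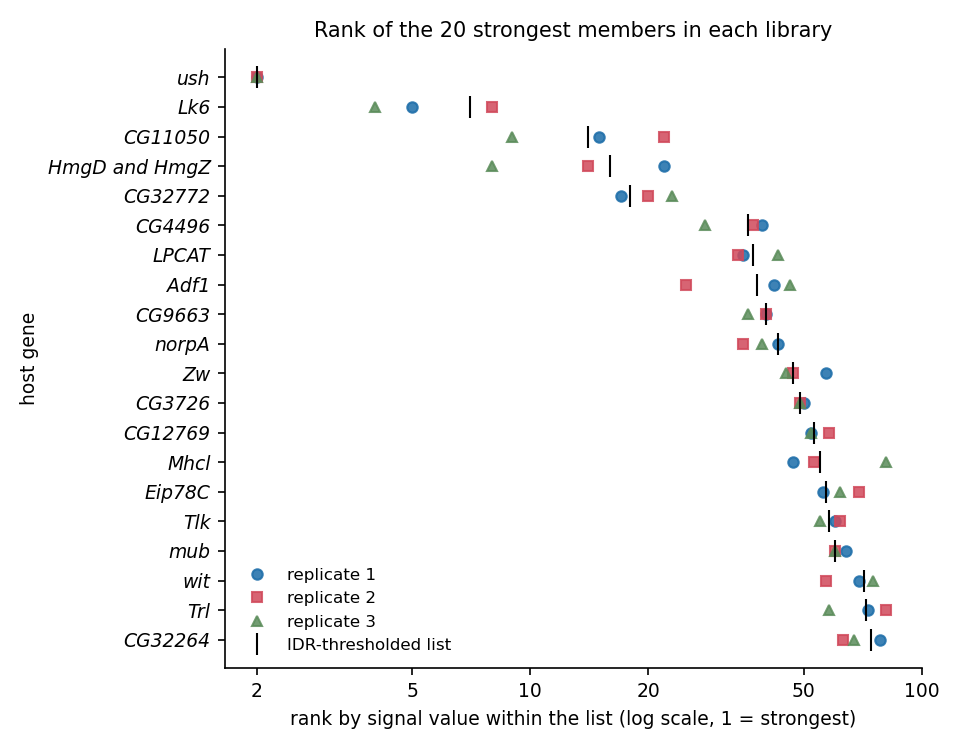
Rank by signal value (x axis, log scale) of the 20 strongest members that all 3 libraries recovered, 1 row per host gene. Symbols are the 3 libraries and the bar is the rank in the IDR-thresholded list. The member in ush has rank 2 in every list, and the 3 library ranks of most other members lie close to the bar.

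Signal values are on a scale that the sources do not give and differ between libraries (2093, 1323 and 1558 for the ush peak in replicates 1, 2 and 3), so members were compared by rank within each list. The median rank of members was 3735.5 in replicate 1, 3732.0 in replicate 2 and 3832.5 in replicate 3, against 4279.5, 4218.0 and 4339.5 for deep intronic peaks. Members thus stood higher in all 3 libraries, by 512 ± 29.4 ranks (SD, n = 3). An exact two-sided sign-flip permutation test over libraries gave p = 0.25, the smallest p that 3 libraries allow, so no difference over these libraries can pass 0.05. Intergenic peaks had median ranks of 4228.0, 4126.0 and 4344.0, lower than members in every library. Promoter peaks stood above members in every library, with median ranks of 3597.0, 3628.0 and 3440.0, a gap of 212 ± 158 ranks (SD, n = 3) that was 138.5 in replicate 1, 104.0 in replicate 2 and 392.5 in replicate 3. Among the 3858 IDR-thresholded peaks with the highest signal value the mean gap was 83.0 ranks and its sign differed between libraries (exact two-sided sign-flip permutation test, p = 0.5).

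The same order held at the top of the IDR-thresholded list. Members made up 25 of the first 100 peaks, deep intronic peaks 4 and promoter peaks 61. For members this was no more than their share of the whole list. Promoter peaks were above their share of the list and deep intronic peaks below theirs. Of members, 14.0% were among the first 1000 peaks, against 7.84% of deep intronic, 9.15% of intergenic and 15.6% of promoter peaks. The members' share was only a little above that of all IDR-thresholded peaks. The share of members in each library's list changed little further down: they were 28.0%, 26.2% and 26.5% of the first 1000 peaks of replicates 1, 2 and 3, and 24.7%, 25.5% and 23.9% of the peaks after those, up to rank 7717. Deep intronic summits were 8.70%, 8.90% and 8.30% of the first 1000 peaks and 14.6%, 15.8% and 14.6% of the peaks after those.

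**Figure D2:**
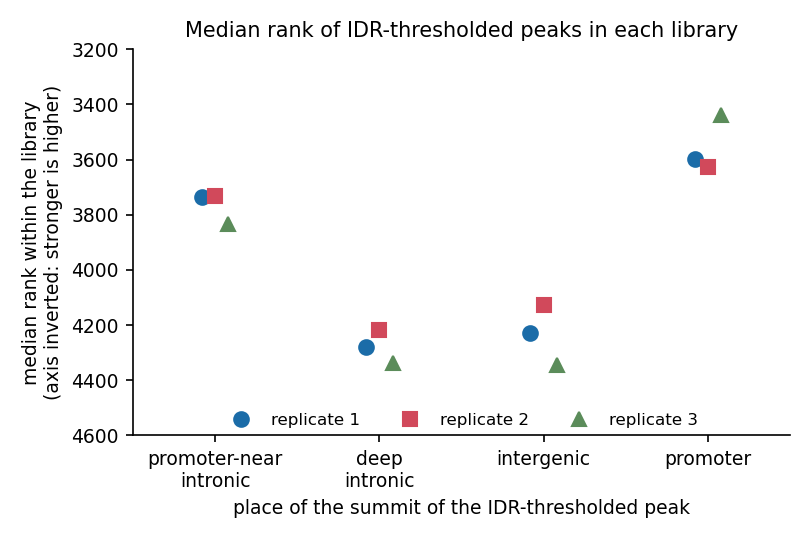
Median rank within each library (y axis, inverted so that stronger peaks stand higher) of IDR-thresholded peaks, by the place of the summit. In all 3 libraries promoter-near intronic peaks lie above deep intronic and intergenic peaks and below promoter peaks, an order to promoter peaks that did not hold in every library for the 3858 strongest peaks.

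Members were counted as recovered in a library when an overlapping peak was among that library's 7717 strongest. All 3 libraries recovered 1494 members (77.3%), against 74.6% of all IDR-thresholded peaks, 74.4% of deep intronic, 74.1% of intergenic and 73.5% of promoter peaks. The members' share is thus near the background. Of the remaining members, 311 were recovered in 2 libraries, 119 in 1 and 8 in none. The IDR-thresholded list was made from these libraries, so recovery describes how even a peak was and is no independent replication. When the rule was applied to each library's own 7717 strongest peaks, 25.2% met it in replicate 1, 25.6% in replicate 2 and 24.2% in replicate 3. Deep intronic summits made up 13.9%, 14.9% and 13.8%.

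Peaks were more closely spaced the nearer the intronic sequence was to a start site. Introns 501 to 5000 bp from a start site, 24.5 Mb in all, held 78.7 peaks per Mb, against 38.3 in deep introns and 35.7 between genes. Windows within 500 bp of start sites held 178 per Mb, and exons away from start sites 6.69 per Mb. By distance, there were 116 peaks per Mb at 501 to 1000 bp (511 members), 85.8 from there to 2000 bp (602), 68.0 from there to 3000 bp (363), 59.1 from there to 4000 bp (253) and 58.0 in the last class, which ends at 5000 bp (203). The decline was steepest close to the start site, and the last 2 distance classes were nearly level.

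The libraries' own strongest peaks had lower densities with distance over the first 4 classes in each library, and not throughout. There were 118, 87.5, 68.0, 54.7 and 59.7 peaks per Mb in the 5 classes in replicate 1, 114, 86.9, 71.7, 62.6 and 59.7 in replicate 2, and 114, 83.5, 63.5, 56.5 and 57.1 in replicate 3. The last class was thus above the one before it in replicates 1 and 3. The near introns exceeded deep introns by 39.8 ± 1.45 peaks per Mb (SD, n = 3; exact two-sided sign-flip permutation test, p = 0.25). Deep introns hold more repeated sequence: the stretch of 31 bases around a position occurs once in the reference for 95.3% of the near and 81.3% of the deep intronic sequence, while 99.9% of members and 100% of deep intronic summits lay at such positions. Over those positions alone the densities were 82.5 and 47.2 peaks per Mb, a ratio of 1.75, against 2.05 over all sequence. Members at 501 to 1000 bp were also stronger, with a median rank of 3294 in the IDR-thresholded list, against 3930 in the last 1000 bp of the range.

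**Figure D3:**
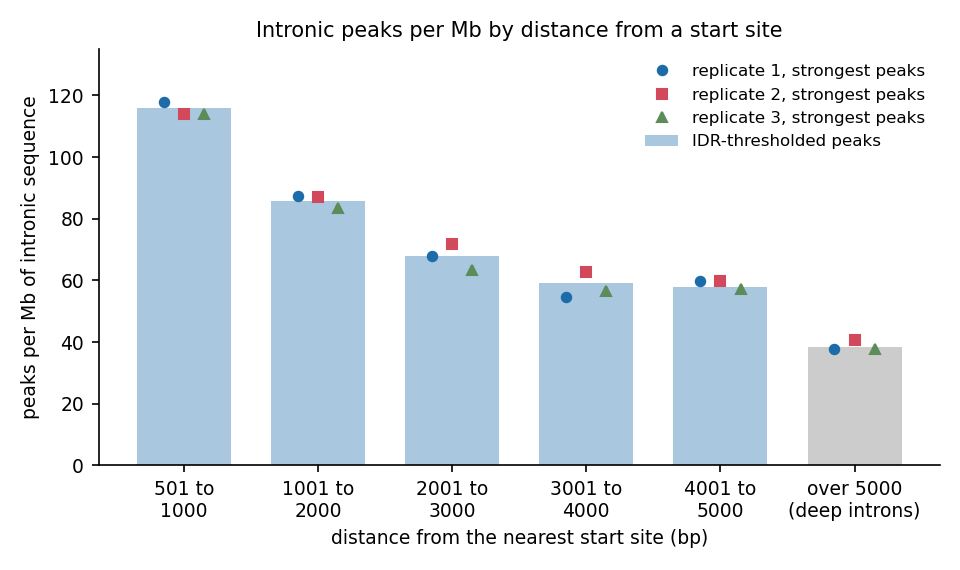
Peaks per Mb of intronic sequence (y axis) by distance of the summit from the nearest start site (x axis). Bars are IDR-thresholded peaks, blue for promoter-near and grey for deep introns, and symbols are each library's 7717 strongest peaks. The bars fall with distance to 58.0 per Mb in the class up to 5000 bp and 38.3 per Mb in deep introns, and the symbols of the libraries lie near them, with the last promoter-near class slightly above the one before it in replicates 1 and 3.

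Members were concentrated in first introns. A first intron of at least 1 transcript held 1445 members (74.8%), whereas first introns made up 57.4% of the sequence that could hold a member. This gave 103 members per Mb of first introns and 46.6 per Mb of other introns. Deep intronic peaks showed the same: 50.9% lay in first introns, which made up 31.2% of deep intronic sequence, so this is not particular to members. First introns were denser in each distance class, from 139 against 63.4 per Mb at 501 to 1000 bp to 75.6 against 42.0 per Mb in the class farthest from the start site. Among each library's strongest peaks the densities were 104, 104 and 100 per Mb in first introns and 45.6, 49.0 and 44.0 in other introns (mean difference 56.5 ± 1.75, SD, n = 3; exact two-sided sign-flip permutation test, p = 0.25).

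Position relative to the direction of transcription did not set members apart. Their summits lay downstream of the nearest start site in 64.4% of cases, against 65.5% of the sequence that could hold one. The nearest start site belonged to the host gene for 76.6% of members and for 55.4% of deep intronic peaks, which by the rule lie farther from any start site. The shortest annotated intron around the summit had a median length of 7278 bp for members and 18880 bp for deep intronic peaks. No such length was worked out for the sequence that could hold a member, so it cannot be read as a trait of members. Member intervals were at most 824 bp wide, with a median of 404 bp, as in the other classes.

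Many members had a second site close by. Another IDR-thresholded summit lay within 1000 bp of 583 members (30.2%), against 21.4% of deep intronic peaks. By the rule no promoter summit can lie that near to a deep intronic summit, whereas one can lie that near to a member. This comparison is thus in part fixed by the rule. A promoter summit lay within 5000 bp of 854 members (44.2%). The interval reached within 500 bp of a start site in 192 cases (9.94%) and held exon bases in 134 (6.94%). An interval with more than 1 summit is listed once per summit, which made 10 members repeats of another peak's interval. Almost all members (97.7%) lay in the body of a protein-coding gene, but for 245 (12.7%) the nearest start site was that of a non-coding gene. Without non-coding start sites, 136 members (7.04%) would be more than 5000 bp from any start site.

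Members lay in 1109 genes, which is 11.6% of the 9533 genes with any sequence that could hold one. Most of these host genes (643) held 1 member, 244 held 2 and 222 held 3 or more. Whether a gene held one went with how much such sequence it has. Of protein-coding genes, 2.46% of those with up to 2000 bp were hosts, 21.4% of those with more than that and up to 5000 bp, 35.5% of those with up to 10000 bp and 54.7% of those with more.

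Host genes more often had a promoter peak of their own. A summit within 500 bp of one of their start sites was found for 47.0% of host genes and for 27.8% of the genes with such sequence and no member. The share was 41.1% for hosts of 1 member, 52.0% for hosts of 2 and 58.6% for hosts of 3 or more. The median amount of such sequence rose over these groups too, from 4.28 kb through 8.57 kb to 14.9 kb. Host genes of deep intronic peaks stood at 37.9%, and those of them without a member at 25.8%. Among protein-coding genes a gap was also present within bands of such sequence. The shares were 40.5% against 30% up to 2000 bp, and 49.1% against 25.5% above that and up to 5000 bp. They were 45.3% against 23.4% up to 10000 bp, and 51.4% against 22.1% above that. In the first band hosts had a median of 1.28 kb of such sequence and the other genes 0.208 kb, so amounts there were not alike. The number of start sites per gene was not matched. In the libraries' own strongest peaks, hosts exceeded the other genes by 21.0, 19 and 19.4 percentage points in replicates 1, 2 and 3 (mean 19.8 ± 1.05, SD; exact two-sided sign-flip permutation test, p = 0.25).

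The genes with most members were mostly long. The non-coding gene lncRNA:CR44357 held 15 and CG1677 held 14, but these overlap on the X chromosome and share members. The gene shn, which encodes Schnurri, a zinc finger factor of Dpp signalling, held 14, 11 of them recovered in all 3 libraries, with its strongest at rank 897. Tlk held 11, and sbb, tou, kirre and Ptp61F held 10 each. The gene sbb encodes Scribbler, a nuclear factor of growth and patterning, kirre a cell adhesion protein of myoblast fusion, and Ptp61F a tyrosine phosphatase of JAK/STAT signalling. Per Mb of sequence that could hold one, tou had 504 members and sbb 488, whereas kirre had 93.6, close to the 78.7 over all such introns. Svil, a supervillin-like actin-binding gene, and E2f1, the cell cycle transcription factor gene, held 9 each.

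In ush the 8 members were unequal. The one shown above, with rank 2, stood far above the rest, whose ranks in the IDR-thresholded list were 3276, 3335, 3942, 4220, 4422, 4590 and 7283. The last lay 818 bp from the strongest and was recovered in 1 library, with rank 8084 in replicate 1, 5557 in replicate 2 and 8070 in replicate 3. The gene also held 4 deep intronic peaks and had no promoter peak of its own.

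The gene lists compared below were written from textbook roles. Over all 17 lists, 102 of the 322 genes with such sequence (31.7%) held a member, against 11.6% of all such genes. Many listed genes have long introns, so the median length of such sequence stands beside each list. Over all genes with any, that median was 0.450 kb.

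Of the ecdysone response list, 12 of 23 genes with such sequence held a member (52.2%; median 10.6 kb; 124 members per Mb). Of coding genes with more than 10000 bp of such sequence, 54.7% were hosts. That band holds the median of this list, but not all of its genes. ImpL2 (8.04 kb), gce (7.12 kb) and Kr-h1 (8.09 kb) lie in the band below it, with 35.5% hosts. The 54.7% is thus no matched expectation, and the difference was not tested. The 124 members per Mb were above the 78.7 over all such introns. Best ranks in the IDR-thresholded list are given in brackets below. The nuclear receptor genes among the 12 hosts were Eip78C (57), Hr4 (84), Eip75B (828), EcR (944), ftz-f1 (1963) and Hr3 (3558). EcR encodes the ecdysone receptor, and the products of the others pass its signal on in the prepupa. The remaining hosts were ImpL2 (393), whose secreted product binds insulin-like peptides, tai (936), the coactivator Taiman, Eip74EF (2144), an ETS factor, Blimp-1 (3129), a repressor that times ftz-f1, gce (5289), a juvenile hormone receptor, and Kr-h1 (5696), a juvenile hormone response gene. Of these 12, 5 also had a promoter peak. Counted in each library's own strongest peaks, 13, 12 and 13 genes of this list were hosts in replicates 1, 2 and 3.

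The receptor genes differed in how even their members were. Hr4 had 4 members, all recovered in all 3 libraries. Its strongest ranked 88 in replicate 1, 82 in replicate 2 and 85 in replicate 3, and lay in a first intron, 2573 bp from a start site of the pseudogene CR46447. The nearest start site was also another gene's for the strongest members in Eip78C (CG43218), Eip75B (lncRNA:CR45921), EcR (tRNA:Asn-GTT-1-1) and ftz-f1 (lncRNA:CR45938). Over all members it belonged to the host gene for 76.6%. EcR had 5 members, of which the strongest ranked 715 in replicate 1, 1530 in replicate 2 and 969 in replicate 3. Of the 5, 4 were recovered everywhere. Eip75B had 5 over 57.8 kb. Its strongest ranked 729 in replicate 1, 1525 in replicate 2 and 667 in replicate 3, and 3 were recovered in all libraries. In Eip78C the second member ranked 6541 in the IDR-thresholded list and was recovered in replicate 2, where it ranked 6017, but ranked 18285 in replicate 1 and 10160 in replicate 3.

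The list of EGFR, Ras and MAP kinase genes had 12 hosts of 20 (60%; median 4.09 kb; 246 members per Mb). These run from the receptor Egfr (6 members, best rank 884) and its ligands spi (2, 5069) and vn (1, 7460) through the adaptor drk (2, 1516) and the kinases Raf (5, 520) and Dsor1 (1, 6720) to the nuclear factors aop (6, 418) and pnt (5, 2585). The inhibitors aos (1, 1311) and sty (2, 2790) and the ligand-processing gene S (2, 1806) were hosts too. The fat body and lipid list had 7 hosts of 11 (63.6%; median 2.47 kb; 276 per Mb). These were the lipase gene bmm (4 members, best rank 1036), SREBP (1, 1532), the perilipin gene Lsd-2 (1, 1597), the lipin gene Lpin (2, 2824), mdy (2, 3941), which makes triglycerides, ACC (1, 4046) and FASN1 (1, 6526), both of fatty acid synthesis. In both lists the share was above the 21.4% of coding genes with more than 2000 and up to 5000 bp of such sequence. That band holds the median of each list, but not all of its genes. Dsor1 (0.676 kb), pnt (27.2 kb), SREBP (0.456 kb) and Lpin (10.2 kb) lie outside it, in bands with 2.46% or 54.7% hosts. The 21.4% is thus no matched expectation, and the difference was not tested. Among the 3858 peaks with the highest signal value the shares of hosts were 36.4% for the fat body list and 40% for the EGFR list, against 43.5% for the ecdysone list and 43.5% for the Wnt and Hedgehog list.

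The Wnt and Hedgehog list had 10 hosts of 23 (43.5%; median 4.99 kb), among them the receptors fz (best rank 400) and fz2 (1144), the kinase sgg (800) and the coreceptor arr (817). The Hippo and planar polarity list had 7 of 18 (38.9%; 3.81 kb), led by crb (77) and ex (193), upstream regulators, and wts (1129), the kinase itself. The autophagy and cell death list had 4 of 11 (36.4%; 1.34 kb), with the caspase inhibitor Diap1 (526), Atg5 (837), whose member also lies in CG1677, Atg1 (2032) and Atg17 (7575). The Notch list had 5 of 18 (27.8%; 3.48 kb), led by neur (235), mam (443) and numb (1647). The chromatin and insulator list had 6 of 28 (21.4%; 0.904 kb), led by Trl (72), trx (203), ph-p (512) and osa (1941). The insulin, TOR and growth list had 4 of 20 (20%; 1.13 kb), which were Lk6 (7), foxo (3002), S6k (3041) and InR (3322). In the order of this paragraph, these lists had 188, 155, 232, 82.2, 229 and 81.2 members per Mb, against 78.7 over all such introns.

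Lists with long introns did not all hold many members. The ion channel and synapse list had 4 hosts of 24 (16.7%; median 8.94 kb; 26.8 members per Mb) and the muscle list 2 of 19 (10.5%; 4.5 kb; 28.5 per Mb), both below the 78.7 per Mb over all such introns. Leaving out any 1 library put the muscle list at 5.26%. The imaginal disc patterning list had 5 of 33 (15.2%; 6.70 kb; 42.1 per Mb), which were ush, bab1 (1401), al (2221), hth (4157) and tup (5662). The Hox list had 5 of 11 (45.5%; 8.29 kb; 56.8 per Mb), with Antp (1836), hth (4157), Ubx (4723), Abd-B (5956) and lab (6067), and the neuronal adhesion and guidance list 12 of 31 (38.7%; 9.02 kb; 61.8 per Mb), led by Ten-a (452), fra (1069), dlp (1127) and sli (1758). Genes for cytosolic ribosomal proteins (0 hosts of 10) and for cuticle and salivary glue (0 of 2) held no member. The 10 ribosomal protein genes have a median of 0.129 kb of such sequence, while 22 of the 25 on the list had a promoter peak.

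**Figure D4:**
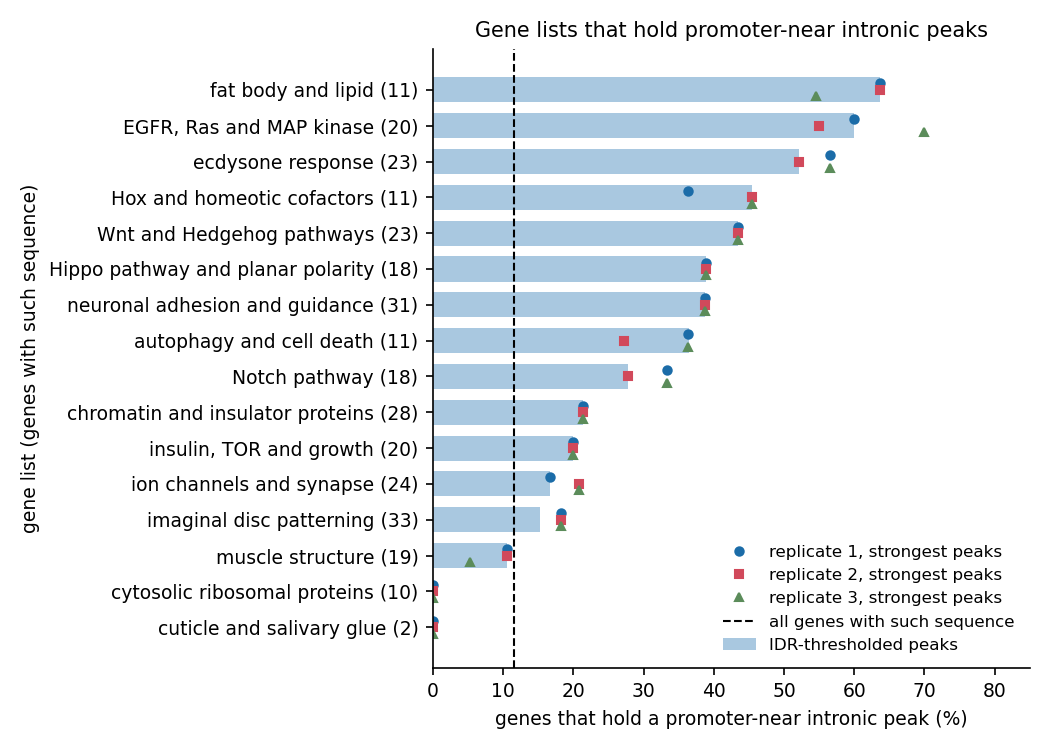
Share of the genes of each list described above that hold a promoter-near intronic peak (x axis), of the genes with sequence that could hold one, whose number stands in brackets. Bars are IDR-thresholded peaks, symbols each library's 7717 strongest peaks, and the dashed line is the 11.6% of all genes with such sequence. Fat body, EGFR and ecdysone genes stand at the top in the IDR-thresholded list and in all 3 libraries, an order that did not hold for the 3858 strongest peaks, and ribosomal protein and cuticle genes at 0.

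Bases at member summits were mostly A or T. Over windows reaching 50 bp to either side of the summit the mean was 67.4% A or T, against 67.6% at deep intronic, 67.1% at intergenic and 64.4% at promoter summits and 60.4% over all intronic windows that could hold a member. In the libraries' own strongest near intronic peaks it was 67.1%, 66.2% and 67.2% in replicates 1, 2 and 3. The A or T share peaked at 68.3% in the 20 bp from the summit on, stood at 54.8% to 55.7% about 220 to 340 bp away on either side, and was 59% to 60% beyond 700 bp. Unbroken A or T runs of at least 10 bases were in 53.5% of member windows and in 36.6% of intronic windows.

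**Figure D5:**
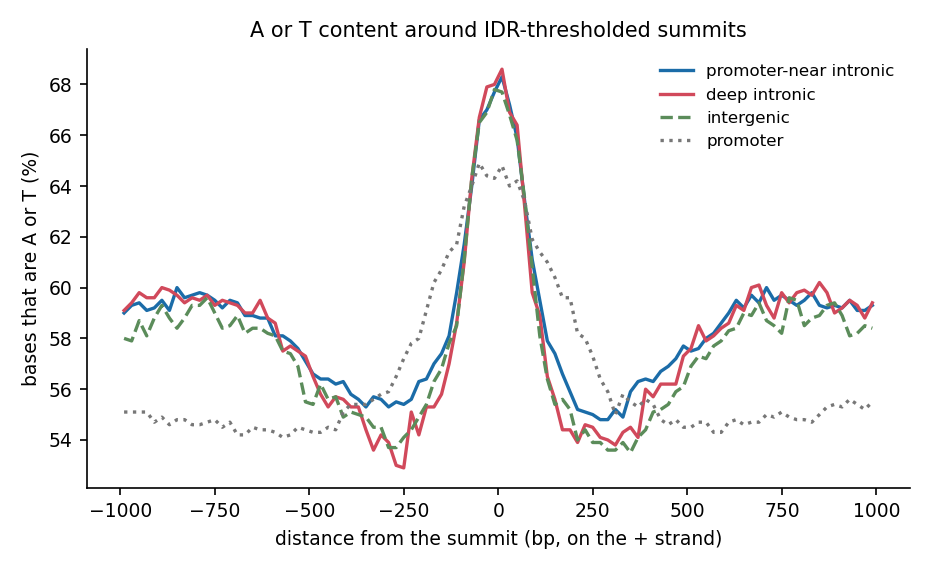
Share of bases that are A or T (y axis) by distance from the summit (x axis), in steps of 20 bp, for promoter-near intronic, deep intronic, intergenic and promoter peaks. The promoter-near intronic, deep intronic and intergenic peaks share a narrow rise to about 68% at the summit with a dip on both sides, while promoter peaks reach a lower maximum, 64.9%, over a lower level far from the summit.

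Short words of 6 bases were counted on both strands at the summits and in windows 250 bp to either side. Of the words found in at least 10% of member windows, the 10 that most favoured the summit were made of A and T with at most 1 other base. The one with the highest ratio, ATCTTA, was in 10.7% of member summits and in 2.87% of the windows to either side, and in 5.17% of all intronic windows that could hold a member. The palindrome TTTAAA was in 20.1% of member summits, in 6.03% of the windows to either side and in 11.4% of all such intronic windows. Deep intronic summits held the first of these in 9.87% and the second in 22.0% of cases, close to the shares at member summits.

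Known motifs were searched on both strands, and the 3 given first were rarer at members than at promoter peaks. The DRE (TATCGATA), the site of the promoter factor Dref, was in 0.362% of members, 0.277% of deep intronic and 3.69% of promoter summits, and in 0.207% of intronic windows. The core of the BEAF-32 site (CGATA, which also occurs inside the DRE) was in 10.4% of members, 10.5% of deep intronic summits and 22.6% of promoter summits, and in 10.9% of intronic windows. Ohler motif 7, a core promoter element, was in 1.14% of members, 0.554% of deep intronic summits and 5.27% of promoter summits. In intronic windows it was in 0.652%. For these 3 motifs the members' shares were closer to those of other introns than to those of promoter peaks.

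The GATA motif (A or T, GATA, then A or G), which overlaps the BEAF-32 core in part, was in 26.5% of members, 24.0% of deep intronic and 19.4% of promoter summits, and in 18.6% of intronic windows. Against intronic windows the difference was smaller among windows of like base content. Below 60% A or T the shares were 14.8% for members, 14.1% for deep intronic summits and 13.4% for intronic windows. In windows of 60% to below 70% A or T the shares were 26.8% for members, 24.5% for deep intronic summits and 21.9% for intronic windows, and at 70% or more 30.1%, 26.3% and 26.8%. The homeodomain core TAATTA was in 10.6% of members and 8.03% of intronic windows, and at 60% to below 70% A or T in 7.98% and 9.22%. CA repeats (CACACACA) were in 0.932% of members and 2.56% of intronic windows. By A or T content members and windows stood at 3.04% and 3.97% below 60%, 0.912% and 1384 of 86451 windows at 60% to below 70%, and 0.253% and 0.460% above that, so the gap was smaller within each band. The GAGA factor site (GAGAGAG) was in 0.828% of members and 1.45% of intronic windows. No member, deep intronic or intergenic summit held the ecdysone response element searched, and 1 of 3223 promoter summits did. It was in 0.0197% of intronic windows, too rare for its absence from 1932 members to be read as a result.

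Among motifs found at deep intronic summits, the one with the largest ratio of members to those summits was CAGGTAG, the site of the early embryonic factor Zelda, but on few windows: 9 of 1932 members (0.466%) and 1 of 1084 deep intronic summits (0.0923%). Intronic windows held it at 0.482%, the level of members. It is shown here because it was the largest of these ratios. Ohler motif 6 was in 2 members and in no deep intronic summit, so it has no such ratio. The 3 strongest recovered members that hold CAGGTAG lay on the X chromosome, and capitals mark the match on either strand.
Raf, chrX:2318515-2318615, rank 1948: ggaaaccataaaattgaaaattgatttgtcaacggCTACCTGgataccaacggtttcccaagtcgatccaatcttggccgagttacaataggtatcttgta
CG42354 and CG42353, chrX:16102451-16102551, rank 2205: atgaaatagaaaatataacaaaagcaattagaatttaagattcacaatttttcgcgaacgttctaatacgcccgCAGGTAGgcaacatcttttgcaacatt
Nep1, chrX:6097721-6097821, rank 2336: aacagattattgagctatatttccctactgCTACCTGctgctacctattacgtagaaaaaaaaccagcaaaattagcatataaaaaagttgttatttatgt

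By chromosome arm, the X had the most members per Mb. It held 473, which is 97.7 per Mb of sequence that could hold one, while 3R held 411 (73.6 per Mb), 3L 384 (76.8), 2R 351 (80.3) and 2L 312 (70.2). Chromosome 4 held 1 (3.17 per Mb). Among each library's strongest peaks the X had 95.4, 97.9 and 95.9 near intronic peaks per Mb in replicates 1, 2 and 3, and the autosomes 76.2, 77.2 and 72.4 (mean difference 21.1 ± 2.15, SD, n = 3; exact two-sided sign-flip permutation test, p = 0.25). All strongest peaks together were spread more evenly, at 60.7, 63.0 and 64.9 per Mb on the X and 57.4, 57.0 and 56.4 on the autosomes. These last values are per Mb of whole chromosomes, not of sequence that could hold a member, so their levels do not compare with those before. Males have 1 X chromosome, and how the pooled sexes bear on these values was not tested.

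The peaks nearest to the distance limits were as follows, described with no test. Just inside 501 bp lay members in MESR3 (501 bp, rank 1276), jar (503 bp, rank 535) and DopEcR (503 bp, rank 3334), and just outside lay promoter peaks in Hr3 (499 bp, rank 505) and Mob2 (499 bp, rank 3661). Just inside 5000 bp lay members in cv-c (4991 bp, rank 481), tara (4991 bp, rank 3302) and Lrch (4982 bp, rank 1634), and just outside lay deep intronic peaks in Ork1 (5003 bp, rank 6415), lncRNA:CR43314 (5005 bp, rank 5323) and cno (5017 bp, rank 5721). The gene CG31627 itself has 56 bp of sequence that could hold a member and held none. The member nearest to it lay 23192 bp away in Ret, with rank 7456.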

How the data were processed

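ChIP-seq peak lists of 3 replicate libraries of 1 group, of the libraries pooled, and the IDR-thresholded list were analysed on dm6. Per the submitters' labels, chromatin was sonicated to 200 to 800 bp; aligner and peak caller: not given in the sources used here. Each deposited list gives a signal value per peak, a score on a scale that is not stated, a −log10 q-value as the authors computed it, and the summit's offset in bp from the peak's start (another unit, as deposited). Scores were used to rank peaks within a list. The lists hold 30000, 28593 and 25547 peaks for replicates 1, 2 and 3, 27240 pooled and 7717 IDR-thresholded; they give no read counts, so depth is unknown. Lists on dm3 (5) were not used, and 0 columns of per-sample values were unmapped.

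Summits were classed against Ensembl release 115 (BDGP6.54; 18164 genes on 6 arms). Members, gene lists, motifs and tests were chosen with earlier results of these data known. An IDR-thresholded peak was matched to the overlapping library peak (at least 1 bp) with the nearest summit. Library values used each library's 7717 strongest peaks and an exact sign-flip permutation test (two-sided). Replicates are labelled biological replicates, and nothing says which animals they share. Genes named are the hosts of the 20 strongest recovered members, the 10 genes with most members, the ecdysone list hosts, up to 4 leading hosts of each other list (for the EGFR, fat body, Hox and disc lists further hosts, chosen after their values were seen), CG31627 and peaks at the distance limits; some items of these lists are not reported here. Further members of ush, the bands of A or T content, and the 6-base words were also chosen after the values were seen. Sequences come from the RefSeq copy of genome release 6. Python 3.11.15, NumPy 2.4.6, pandas 2.3.3, SciPy 1.17.1 and matplotlib 3.10.9 were used. The classing, matching and motif search were tested on simulated data.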

Additional observations from a re-analysis of the deposited data

Results flagged for a closer look

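Peaks outside the IDR-thresholded list also lay in these introns. Of 5250 peaks of the pooled list that had a q-value of 0.05 or less but fell below the IDR threshold, 1288 (24.5%) met the rule, close to the 25.0% in the IDR-thresholded list. They are flagged because no comparison above uses them. Their signal values were at most 103, the lowest value of a member, so they continue the list downwards. The question of how many are reproducible was not tested.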

How the results depend on the processing

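No mean difference between classes changed sign under an alternative, but the rank difference to promoter peaks did so in single libraries for the 3858 strongest peaks. The share of members among IDR-thresholded peaks was 23.7% with start sites of protein-coding genes alone, 29.7% and 18.4% with the lower limit moved to 250 and 1000 bp, and 19.1% and 32.9% with an upper limit of 3000 and 10000 bp. Members per Mb were 81.7 with coding start sites, 85.4, 70.6, 88.0 and 71.3 under those 4 limits in the same order, 82.5 over positions whose 31-mer occurs once, and 40.6 for the 3858 peaks with the highest signal value. The ratio of near to deep intronic density was 2.39 for those 3858 peaks, 2.23 and 1.84 with lower limits of 250 and 1000 bp, 2.57 with an upper limit of 10000 bp, and 1.75 over positions whose 31-mer occurs once. Recovery was 73.6% with summits matched within 100 bp, and 81.3% to 83.8% in 2 libraries when 1 replicate was left out. The first intron share was 77.4% for the 3858 strongest peaks. The share of hosts with a promoter peak was 35.2% for those peaks, 33.3% and 58.3% with lower limits of 250 and 1000 bp, and 40.8% to 42.0% without 1 replicate. Hosts minus other genes gave 11.3 and 25.8 points with those lower limits, 20.2 and 17.0 with upper limits of 3000 and 10000 bp, and 17.5 to 19.2 without 1 replicate. A or T content was 65.3% within 100 bp of the summit. Listed genes that hold a member were 24.8% for the 3858 strongest peaks. For the distance limits the change follows from their construction; otherwise the cause was not tested. The difference in median rank to promoter peaks shrank to 83.0 for the 3858 strongest peaks, with both signs among libraries (exact sign-flip permutation p = 0.5). Lists whose share fell by 1.5 times or more for those peaks were Hox (9.09%), muscle (5.26%, and likewise without any 1 replicate), fat body (36.4%), Notch (16.7%), disc patterning (9.09%) and EGFR (40%). No paired analysis was possible because all samples form 1 group. Matching by summits could not be applied to library shares, which use no match. With 3 libraries and no read counts, neither weak peaks nor small differences can be resolved.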
